A study of Homo sapiens with 7 samples.

Results

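UPP1, uridine phosphorylase 1, was among the genes with higher signal in PC3 cells given doxycycline to induce MITFA, and it is described here with the enzymes that break down, salvage or newly make pyrimidines. The members are 10 genes, UPP1, UPP2, TYMP, DPYD, CDA, UCK1, UCK2, CAD, DHODH and UMPS, chosen by their names in the array annotation and by their place in the pathway. Of these, 8 have a named probe among those tested, out of 11389 named genes tested in all. No tested probe carries the name UPP2 or DHODH, so both are named without a value. UPP1 itself was picked from the comparison of Dox with No dox, so its difference is given as a description with no test. The earlier results of these data were known when the other members were listed.

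PC3 is an established human cell line that was derived from a prostate cancer metastasis to bone. The cells carried a TRIPZ lentiviral cassette that encodes HA-Flag-tagged MITFA, an isoform of the transcription factor MITF, under a doxycycline-inducible promoter. Untreated cells with this cassette made up the No dox group (3 arrays, replicates 2, 3 and 4), and doxycycline-treated cells with the same cassette made up the Dox group (4 arrays, replicates 1 to 4). Both groups thus carry the cassette. Arrays of cells given the drug but lacking the cassette were not analysed here, which means that effects of doxycycline itself and of MITFA cannot be told apart. The sources used here give no dose or duration for the arrays. They also do not say that the arrays came from separate cultures. The p-values therefore refer to the spread among the arrays analysed, and that spread may be technical.

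Pyrimidine nucleotides come from 2 routes. In de novo synthesis, CAD starts the pathway from glutamine and bicarbonate, DHODH oxidizes dihydroorotate to orotate in mitochondria, and UMPS turns orotate into UMP. In salvage, the uridine-cytidine kinases UCK1 and UCK2 phosphorylate nucleosides taken up or released by RNA turnover, and CDA deaminates cytidine to uridine. Breakdown removes the same nucleosides. UPP1 and UPP2 split uridine into uracil and ribose-1-phosphate, TYMP does so for thymidine, and DPYD takes the first step in degrading uracil and thymine. The ribose-1-phosphate that UPP1 releases can enter central carbon metabolism, and uridine phosphorylase and thymidine phosphorylase also act on fluoropyrimidine drugs.

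MITF binds E-boxes, a family of short DNA motifs with the form CANNTG, and prefers CACGTG and CATGTG. The promoter windows of the members (RefSeq, GRCh38.p14, 250 bases before to 50 after an annotated start, 300 bases each) were searched for such motifs. A pair of UPP1 windows is shown, since UPP1 is the member that differed most, with every CANNTG in capitals. UPP1 has 3 windows on chromosome 7. The first, chr7:48088454-48088753 on the plus strand, holds no CANNTG, and the second, chr7:48089004-48089303, holds 4. The third, chr7:48089015-48089314, overlaps the second and holds the same number.
UPP1 window 1: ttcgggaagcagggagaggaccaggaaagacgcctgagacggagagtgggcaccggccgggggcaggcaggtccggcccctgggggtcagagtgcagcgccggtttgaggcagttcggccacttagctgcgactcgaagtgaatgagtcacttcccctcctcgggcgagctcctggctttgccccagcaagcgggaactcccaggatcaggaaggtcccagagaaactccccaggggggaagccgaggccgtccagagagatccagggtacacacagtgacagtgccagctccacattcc
UPP1 window 2: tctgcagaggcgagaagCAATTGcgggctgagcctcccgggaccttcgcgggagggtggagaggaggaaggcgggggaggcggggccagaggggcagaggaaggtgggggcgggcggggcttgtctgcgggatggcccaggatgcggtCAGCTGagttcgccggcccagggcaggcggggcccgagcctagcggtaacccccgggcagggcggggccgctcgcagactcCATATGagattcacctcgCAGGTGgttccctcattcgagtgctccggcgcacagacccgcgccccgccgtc

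None of the UPP1 windows held CACGTG or CATGTG. Among all 15 windows of the 10 members, CACGTG was found in 2, a window of UPP2 (chr2:157994929-157995228, motif at position −73 from the annotated start) and that of DHODH (chr16:72008494-72008793, motif at position −159). These stretches are shown with only CACGTG in capitals, since they are the 2 member windows with this motif.
UPP2 with CACGTG: tttctgcatttaCACGTGtaaatgttcaca
DHODH with CACGTG: gccgctactgcgCACGTGcacccaaccaga

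Over all 35116 windows of the same length, CACGTG stood in 7.26%, CATGTG in 11.1% and any CANNTG in 68.7%. For the members, CATGTG stood in 0 of 15 windows and CANNTG in 9 of 15, which belong to 7 genes. Both strands were searched, and CACGTG and CATGTG are also forms of CANNTG. A match is a description of the letters and not a binding site, and a window without one says nothing about MITF at that gene. The genes with CACGTG have no probe value here.

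The arrays were Illumina BeadChips, on which a probe of fixed sequence reads each transcript. A probe counts as detected on an array when its detection p-value, set against the negative control beads of that array, is under 0.01. Between 15562 and 16618 probes were detected per array, and the 19337 probes that at least 1 array detected entered the limma fit on background-corrected, quantile-normalized log2 signal. The number of arrays limits the precision. A probe is called when its adjusted p (Benjamini-Hochberg over all tested probes) is under 0.05. The MITF probe tested read 6.82 ± 0.11 (log2 signal, SD, n = 3) in untreated cells, against 6.76 ± 0.12 (SD, n = 4) after doxycycline (adjusted p = 0.90 by limma). Whether this probe can read the transgene is not stated, so it does not check the induction. The paper reports by quantitative PCR and western blot that doxycycline induced MITFA in PC3 TRIPZ-MITFA cells. For each marker gene the brightest probe is given. Epithelial KRT8, KRT19 and EPCAM were detected on all arrays, and epithelial KRT18 has no named tested probe. A further EPCAM probe (ILMN_2160209) was detected on 3 of 3 No dox and 1 of 4 Dox arrays. Of the 9 leukocyte, fibroblast and endothelial markers, CD68 and PECAM1 were detected on all arrays, COL1A1 on 1 of 7 and COL1A2 on 5 of 7, and the others have no named tested probe. None of these markers was called.

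UPP1 signal was higher in every Dox array than in every No dox array. Its log2 normalized signal was 8.41, 8.36 and 8.43 in No dox replicates 2, 3 and 4. It was 9.07, 9.13, 9.19 and 8.97 in Dox replicates 1 to 4. The groups were separated by 0.53 between the highest No dox and the lowest Dox array, and Dox replicate 4 was the lowest of its group. The same order was present before any correction, where the raw signal ranged from 382.0 to 424.6 in No dox and from 573.9 to 630.4 in Dox. The means were 8.40 ± 0.036 (SD, n = 3) and 9.09 ± 0.095 (SD, n = 4), a difference of 0.69 (SE 0.075) on the log2 scale or 1.61-fold.

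**Figure D1:**
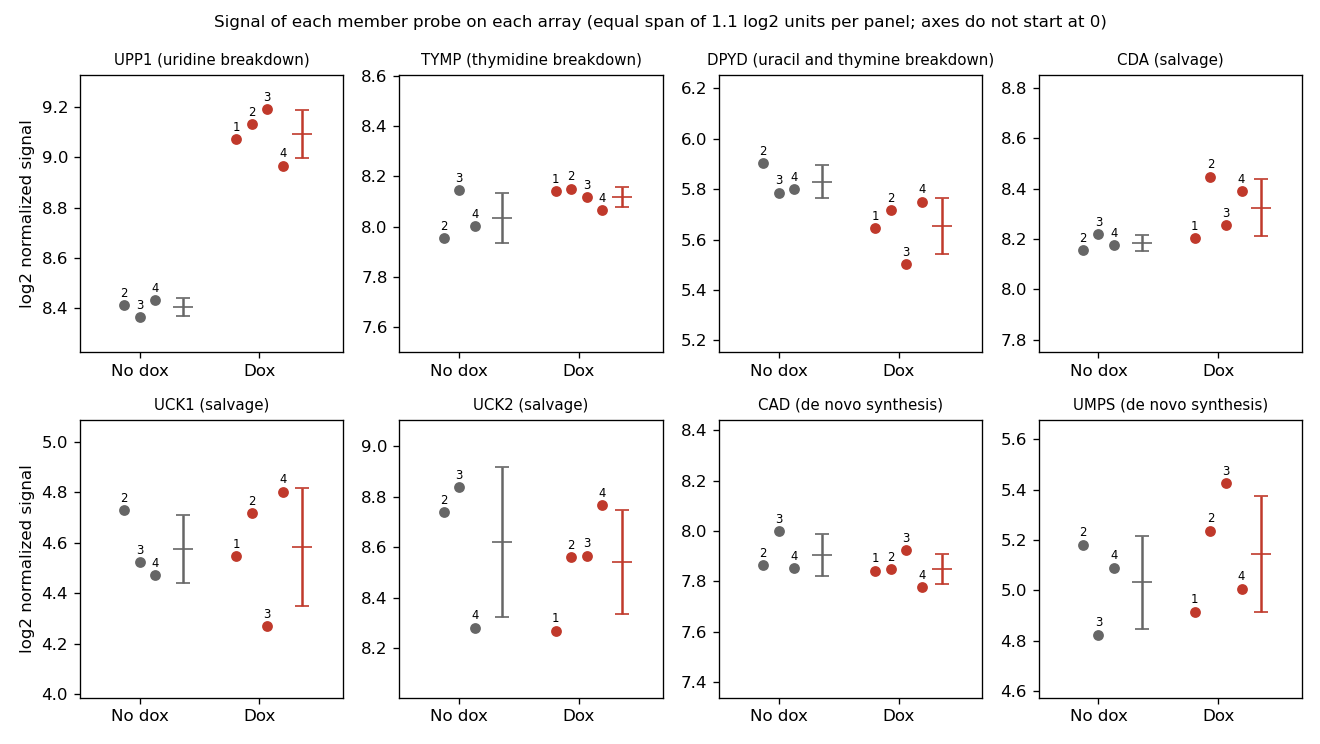
Log2 normalized signal of the 8 member probes on each array, with replicate numbers beside the points and the mean ± SD of each group at the right. All panels span the same log2 distance and no axis starts at 0; the UPP1 groups lie 0.53 apart, while those of every other member except DPYD overlap.

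UPP1 ranked 17th of 19337 probes by log2 fold change. The values as the authors processed them matched quantile-normalized signal with no background correction within 0.046. On them UPP1 had a fold change of 1.51, close to the 1.5-fold limit that the study's methods set. It was the seventh of 8 probes past that limit. Just inside the limit lay KRT75 (1.54-fold), UPP1 and an unnamed probe (1.51-fold), and just outside it lay IFI27 (1.49-fold) and GPNMB (1.43-fold). With the background correction used for all other values here, it was 1.61-fold.

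Of the 8 member probes, UPP1 was the one that was called higher, and no member probe was called lower. Over all tested probes 26 were called higher, which is 0.134%, and 0 were called lower (0%). Nothing is read from this count for UPP1, which was picked from the same comparison. Of the 7 other members 0 were called by limma, and 0 had an unadjusted p under 0.05, against 1643 of all tested probes (8.5%). Their log2 fold changes lay between −0.18 and 0.14 with a median of 0.0085, 4 above 0 and 3 below. Their 95% intervals all lay between −0.41 and 0.41. Changes in probe signal of more than 1.33-fold in either direction thus lie outside every interval. The raw signal of UCK1 (82.6 to 94.9) and UMPS (94.0 to 107.8) was near the median over all probes, 85.6 to 86.4 by array. The intervals of UCK1 and UMPS therefore do not bound the change in their transcripts.

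The other breakdown enzymes gave values unlike that of UPP1. TYMP, which cleaves thymidine, had 7.96, 8.15 and 8.001 in No dox replicates 2 to 4. In Dox replicates 1 to 4 its log2 signal was 8.14, 8.15, 8.12 and 8.06. The Dox arrays lay within the upper part of the No dox range or just above it, and the groups overlapped. The log2 difference was 0.08 (SE 0.073, 95% interval −0.08 to 0.25, adjusted p = 0.79 by limma). It was 0.04 without No dox replicate 2 and 0.14 without No dox replicate 3.

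DPYD, the enzyme after uridine phosphorylase in uracil degradation, was the member other than UPP1 whose groups did not overlap, and it lay in the opposite direction. Its log2 signal was 5.90, 5.79 and 5.80 in No dox and 5.64, 5.72, 5.50 and 5.75 in Dox. The groups were separated by 0.035, a small gap beside the spread within Dox. Of all tested probes, 4.24% had every Dox array below every No dox array, and 9.3% did not overlap in either direction, while 1 of the 7 other members did so. The fitted difference was −0.18 on the log2 scale, an 11.5% lower signal in Dox (SE 0.081, 95% interval −0.36 to 0.0045, adjusted p = 0.60 by limma), and it did not pass the test. Its raw signal ranged from 110.1 to 127.9 over all arrays. On the authors' values the difference was −0.08.

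**Figure D2:**
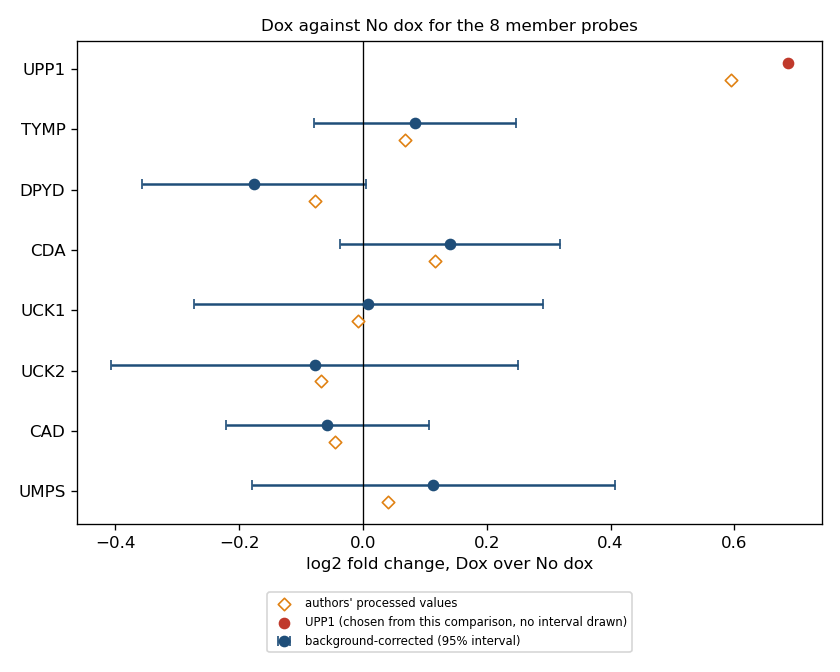
Log2 fold change of Dox over No dox for each member (circles, with limma's 95% interval) and the same on the authors' processed values (diamonds). UPP1 stands at 0.69 with no interval because it was chosen from this comparison, and the intervals of the other 7 members all include 0.

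Among the salvage enzymes, CDA came nearest to a separation. Its log2 signal was 8.16, 8.22 and 8.18 in No dox and 8.20, 8.45, 8.25 and 8.39 in Dox. Dox replicate 1 lay just below No dox replicate 3, and the other 3 Dox arrays were higher than every No dox array. The difference was 0.14 (SE 0.080, 95% interval −0.04 to 0.32, adjusted p = 0.68 by limma), so CDA did not pass the test either.

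The 2 uridine-cytidine kinases among the members, which compete with UPP1 for uridine, varied more between arrays than between groups. UCK2, the kinase often raised in tumours, had 8.74, 8.84 and 8.28 in No dox and 8.27, 8.56, 8.57 and 8.77 in Dox. No dox replicate 4 and Dox replicate 1 were both low, and the range over all 7 arrays was 0.57, larger than the group difference. That difference was −0.08 (SE 0.147, 95% interval −0.41 to 0.25, adjusted p = 0.92 by limma). It became −0.25 without No dox replicate 4 and 0.03 without No dox replicate 3, neither of them called, so its direction rested on single arrays.

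UCK1 was near the detection limit. Its log2 signal was 4.73, 4.52 and 4.47 in No dox and 4.55, 4.72, 4.27 and 4.80 in Dox, with fully overlapping groups. It was detected on 1 of 3 No dox and 1 of 4 Dox arrays, so that most of its values are not above background. The difference was 0.0085 (SE 0.126, 95% interval −0.27 to 0.29, adjusted p = 0.99 by limma), and it ranged from −0.06 to 0.11 as single arrays were left out.

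De novo synthesis is read here by CAD and UMPS. CAD, the multifunctional enzyme that starts the route, had 7.86, 8.001 and 7.85 in No dox and 7.84, 7.85, 7.92 and 7.78 in Dox. The groups overlapped, and the interval of their difference was among the narrowest of the members (log2 difference −0.06, SE 0.073, 95% interval −0.22 to 0.11, adjusted p = 0.87 by limma). Without No dox replicate 3, the highest array, the difference was −0.0097, and without Dox replicate 4 it was −0.03. UMPS, which completes the route to UMP, had 5.18, 4.82 and 5.09 in No dox and 4.92, 5.24, 5.43 and 5.01 in Dox. It was detected on every array, but its raw signal of 94.0 to 107.8 was near the all-probe median of 85.6 to 86.4. Its arrays spread over 0.60 with no separation of the groups, and the difference was 0.11 (SE 0.132, 95% interval −0.18 to 0.41, adjusted p = 0.85 by limma). That value rested on single arrays, as it was 0.01 without No dox replicate 3, 0.02 without Dox replicate 3, and 0.19 without either No dox replicate 2 or Dox replicate 1.

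The wider pathway was read with 10 lists of 66 genes, members included, of which 52 were tested, with the brightest probe standing for each gene. UPP1 was the called gene among them, and nothing is read from its call, as it was picked from this comparison. Of the 44 tested genes that are not members 0 were called by limma and 2 had an unadjusted p under 0.05, against 23 genes called and 965 with an unadjusted p under 0.05 among all 11389 genes tested. The 44 had 18 values above 0 and 26 below (40.9% above), with a median of −0.015, beside 51.9% above 0 and a median of 0.0051 over all genes tested.

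**Figure D3:**
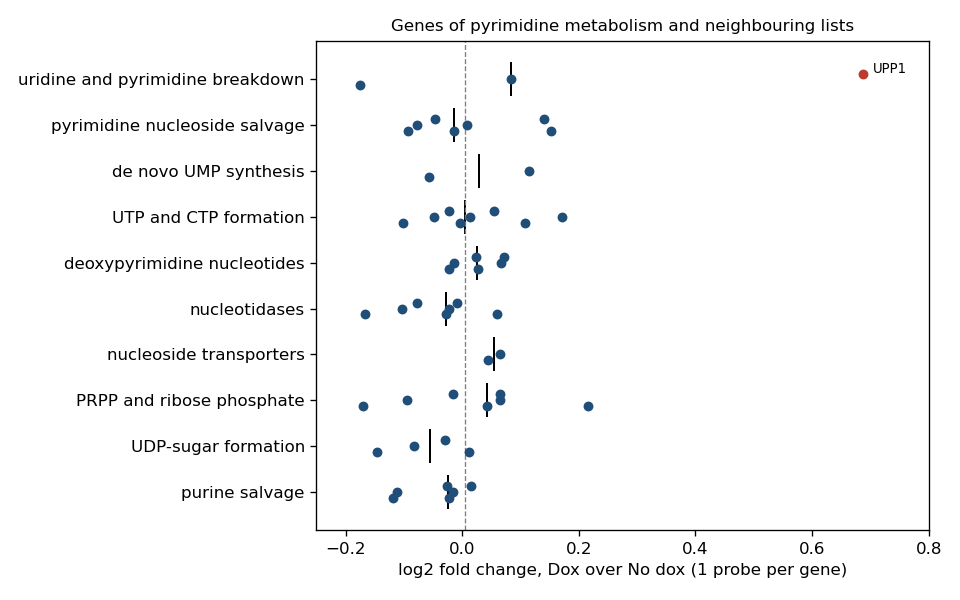
Log2 fold change of Dox over No dox for each tested gene of the 10 lists, with each list's median as a short black line and the median of all genes tested as the dashed line. UPP1 stands at 0.69, and the other genes lie between −0.18 and 0.22.

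Around UPP1, the breakdown list had 3 of 6 genes tested, UPP1, TYMP and DPYD, described above. In the salvage list 7 of 7 genes were tested and 0 called, 3 above 0 and 4 below. TK1, the cytosolic thymidine kinase, had a log2 difference of −0.09 (adjusted p = 0.77 by limma). TK2, its mitochondrial counterpart, had 0.15 (adjusted p = 0.72) and was detected on 1 of 3 No dox and 3 of 4 Dox arrays. DCK, which phosphorylates deoxycytidine, had −0.05 (adjusted p = 0.89). The de novo list had 2 of 3 genes tested and none called.

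The steps from UMP onwards also held no called gene. In UTP and CTP formation 8 of 9 genes were tested, 4 above 0 and 4 below. NME4, a mitochondrial nucleoside diphosphate kinase, had 0.17 (unadjusted p = 0.049, adjusted p = 0.59 by limma), the cytosolic kinase NME1 had −0.10 and CTP synthase CTPS1 had 0.11. Among genes of deoxypyrimidine nucleotides 6 of 8 were tested, 4 above 0 and 2 below, with RRM1 at 0.03, RRM2B at 0.07 and DCTD at 0.07 on their brightest probes. RRM1 and RRM2B are ribonucleotide reductase subunits and DCTD deaminates dCMP. A second RRM2B probe (ILMN_2170595) was detected on 0 of 3 No dox and 2 of 4 Dox arrays. Its signal was higher on every Dox array than on every No dox array, as for 5.07% of all tested probes (unadjusted p = 0.039, adjusted p = 0.57 by limma).

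Nucleotidases, which release nucleosides from nucleotides, had 7 of 8 genes tested, 1 above 0 and 6 below, with a median of −0.028. The largest difference in size was that of NT5E, the cell-surface enzyme CD73, at −0.17 (adjusted p = 0.75 by limma), but this rested on Dox replicate 3, without which it was −0.04. NT5C2, a cytosolic nucleotidase, had −0.10 with every Dox array below every No dox array, as for 4.24% of all tested probes (adjusted p = 0.72 by limma). NT5C3B had 0.06, and 0.03 without Dox replicate 3 or 0.02 without No dox replicate 4. Of the nucleoside transporters 2 of 7 were tested, SLC29A2 with 0.04 and the intracellular transporter SLC29A3 with 0.06. Both turned sign with single arrays left out, and SLC29A3 was −0.03 without Dox replicate 2, its highest array.

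The list of PRPP and ribose phosphate had 7 of 7 genes tested, 4 above 0 and 3 below. RBKS, ribokinase, had a log2 signal of 5.35, 5.63 and 5.71 in No dox and 5.79, 5.80, 5.79 and 5.74 in Dox. Every Dox array exceeded every No dox array, as for 5.07% of all tested probes, and No dox replicate 2 was well below the rest. The difference of 0.22 (unadjusted p = 0.041) had an adjusted p of 0.57 by limma, and it was 0.11 without No dox replicate 2. PGM2, which converts ribose-1-phosphate to ribose-5-phosphate, had −0.09 (adjusted p = 0.80). PRPSAP2, a PRPP synthetase-associated protein, had −0.17 on its brighter probe (adjusted p = 0.70 by limma). Its other probe (ILMN_1812445) had 0.29, with every Dox array above every No dox array (unadjusted p = 0.023, adjusted p = 0.52 by limma). Neither probe was called.

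In UDP-sugar formation 4 of 5 genes were tested, 1 above 0 and 3 below, with UAP1 at −0.15, UGDH at −0.03 and GALT at −0.08 on their brightest probes. A second GALT probe (ILMN_1706005) had −0.29 (unadjusted p = 0.042, adjusted p = 0.58 by limma), with overlapping groups. UGP2, which makes UDP-glucose from UTP, had 0.01 on its brighter probe, and is named here after its values were seen because its other probe (ILMN_2389155) had the lowest adjusted p of the 65 pathway probes that are not members. That probe had 0.40 (SE 0.092, unadjusted p = 0.0014, adjusted p = 0.27 by limma). Purine salvage, the neighbouring route, had 6 of 6 genes tested, 1 above 0 and 5 below. HPRT1 had −0.12, MTAP −0.11 and ADK, adenosine kinase, −0.02, and none was called.

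Of the 52 genes, 16 have more than 1 tested probe, and in 9 of these the probes had opposite signs. Of the 65 pathway probes that are not members 6 had an unadjusted p under 0.05 (9.23%), 5 higher and 1 lower, beside 8.5% of all tested probes. In 5 of the 65 the groups did not overlap, beside 9.3% of all tested probes.

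The pattern of UPP1 over the 7 arrays was compared with that of every other named gene, by the root mean square of the difference between their log2 deviations from the No dox mean. The nearest were TMEM140 (0.095), CEMIP (0.096), which takes part in hyaluronan breakdown, DNAAF11 (0.102), an assembly factor of ciliary dyneins, CFB (0.115), complement factor B, and IFIT3 (0.120), an interferon-induced gene. Their own log2 differences between Dox and No dox were 0.65, 0.77, 0.58, 0.66 and 0.71 in that order, and UPP1's was 0.69. TMEM140 was detected on 6 of 7 arrays and the others on 7. The members were farther from UPP1, from CDA (0.428), UMPS (0.454) and TYMP (0.463) to UCK2 (0.626) and DPYD (0.665). This measure uses the same arrays and comparison that chose UPP1 and is a description.

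**Figure D4:**
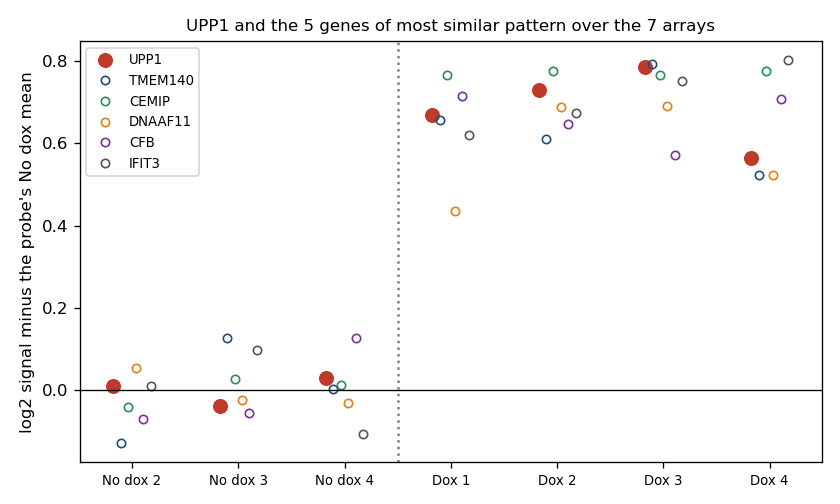
Log2 signal on each array minus the probe's own No dox mean, for UPP1 and the 5 named genes of nearest pattern. UPP1 lies between 0.56 and 0.79 on the Dox arrays, and the 5 genes lie between 0.43 and 0.80 there.

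The UPP1 difference kept its direction across the processing alternatives, while its size moved with the background correction. UPP1 was picked from these same arrays, so the kept direction is a description and no independent check. The UPP1 log2 difference was positive under all 16 and ranged from 0.59 to 0.73. The lowest values were those without further background correction and on the authors' values, and leaving out single arrays gave 0.65 to 0.73.

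**Figure D5:**
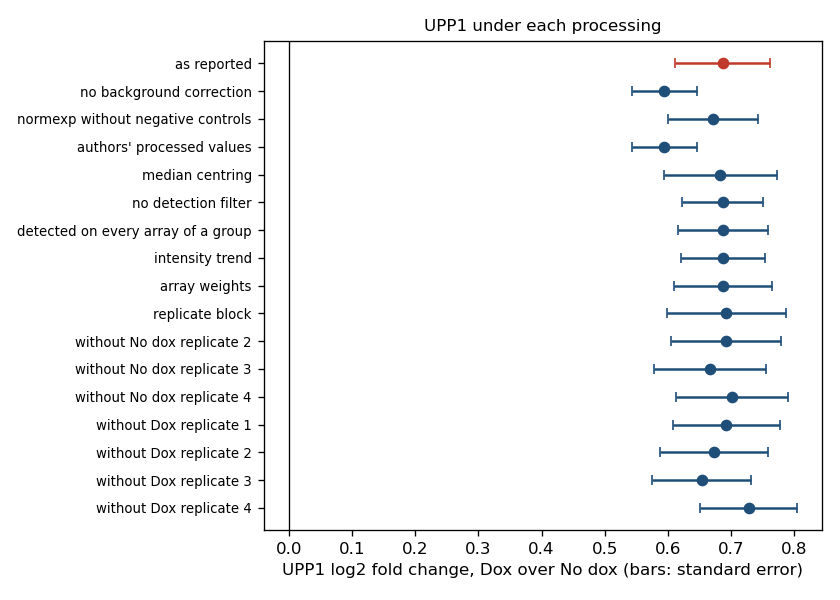
UPP1 log2 fold change of Dox over No dox (± SE) as reported and under each of 16 processing alternatives. All values lie between 0.59 and 0.73.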

How the data were processed

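RNA of PC3 TRIPZ-MITFA cells (3 No dox and 4 Dox arrays) was hybridized to Illumina HumanHT-12 BeadChips. The authors deposited the signal intensity and detection p-value of 47323 probes from GenomeStudio, not normalized. They also deposited log2 values of 19337 probes, processed with lumi per the study's methods. Those log2 values matched log2 quantile-normalized signal with no background correction within 0.046, although the study's methods name background correction.

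From the signal intensities, background was modelled with limma's neqc (limma 3.58.1 in R 4.3.3), which recovers the negative controls out of the detection p-values. An offset of 16 was added, followed by log2 transformation and quantile normalization. This replaced lumi, which was not used here. Removing background enlarges fold changes most for probes of low signal. The 19337 probes whose detection p-value fell under 0.01 on 1 or more arrays were fitted with limma (lmFit and eBayes, 2 group means). Benjamini-Hochberg adjustment covered all of them. The fit was tested on simulated data.

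Gene names came from the platform annotation, in which 15060 tested probes have 1 name, 2 have several and 4275 have none. Named genes were the members, up to 3 further genes with the smallest p in each pathway list, and the 5 genes of pattern nearest to UPP1. The members and lists were chosen with earlier results of these data known. For lists, the probe of highest mean signal stood for a gene. Promoter windows came from RefSeq (GRCh38.p14), and the build of the array probes is not given in the sources read. Alternatives covered background correction, normalization, the detection filter, use of the authors' values, array weights, an intensity trend, a replicate block and each array left out. One marker list is not reported here.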

Additional observations from a re-analysis of the deposited data

Results flagged for a closer look

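Among 36 probes checked over the 4 Dox arrays, 31 of members and named pathway genes and 5 of the genes nearest to UPP1, 3 had 1 array far from the others, where chance alone flags about 5% of groups. For NT5C3B, Dox replicate 3 was the highest at a log2 signal of 7.72, and its gap to the next array was 0.984 of the range. For NT5E, Dox replicate 3 was the lowest at 5.51, with a gap of 0.971 of the range. For SLC29A3, Dox replicate 2 was the highest at 5.88, with a gap of 0.836 of the range. No member probe was flagged.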

How the results depend on the processing

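UPP1 kept its direction under all 16 alternatives, at 0.59 without background correction and, equally, 0.59 on the values the authors processed, and at 0.65 to 0.73 when single arrays were left out. As UPP1 was picked from these same arrays, its kept direction is a description. The other 7 members were not called in any of 111 combinations of member and alternative. UCK1 had the opposite sign in 7 of 15 alternatives, and UCK2 in 3 of 16. An unadjusted p under 0.05 arose in 3 of 16 alternatives for DPYD (log2 difference −0.18, −0.18 and −0.21) and in 2 of 16 for CDA (0.12 in both). Over all 16, DPYD ranged from −0.21 to −0.08 and CDA from 0.10 to 0.18. UCK1 has no value when probes had to be detected on every array of a group. The number of probes called higher was 76 without background correction, 76 with the authors' own values and 93 with an intensity trend, and leaving out single arrays gave 12 to 18. The number called lower was 25, 25 and 39 in the same settings, 2 with detection on every array of a group, and 0 to 1 with single arrays left out. With the intensity trend, 1 pathway probe other than the members was called higher (UGP2, ILMN_2389155, adjusted p = 0.032 by limma; its adjusted p ranged up to 0.51 over 16 alternatives). The cause of these differences was not tested. The labels do not say whether same-numbered No dox and Dox arrays were paired. Their correlations of deviations were −0.03, 0.01 and −0.02, which cannot settle how the cultures were handled. With the replicate number as a block, which left out Dox replicate 1, 6 probes were called higher and UPP1 was 0.69. Leaving out that array without a block gave 18 probes called higher and the same UPP1 value. Probes near the detection limit, such as UCK1, limit what can be seen.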
